A study of Mus musculus with 28 samples.

Results

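The troponin and tropomyosin genes Tnni1, Tnni3, Tnnt1, Tnnt2, Tnnc1, Tpm1 and Tpm2 were followed in mouse heart. Every probe set annotated to 1 of these symbols was taken, which gave 15 probe sets for 7 genes, out of 45037 probe sets and 18193 named genes on the array. No probe set shared a member's symbol with another gene. RNA from heart tissue of 28 animals was hybridised to 1 array each, in 4 groups of 7. The groups were animals of the deletion strain del337TR given WY14643, untreated del337TR animals, control animals given WY14643 and untreated control animals. WY14643 is an activator of PPARalpha, a nuclear receptor that switches on genes of fatty acid use, and the title of the study names resistance to thyroid hormone. The labels do not name the receptor gene that carries the deletion, the zygosity, background strain, age or sex of the animals, or the dose and duration of treatment. The part of the heart that was sampled is not stated either.

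The thin filament of striated muscle is a strand of actin along which tropomyosin lies, with a troponin complex at regular steps. Troponin C binds calcium, troponin I holds the filament off when calcium is low, and troponin T ties the complex to tropomyosin. In rodent hearts the slow skeletal troponin I of Tnni1 is the fetal form and the cardiac troponin I of Tnni3 replaces it around and after birth, a switch on which thyroid hormone is known to act. Tnnt2 encodes cardiac troponin T and Tnnt1 the slow skeletal form, while Tnnc1 encodes the troponin C that heart and slow muscle share. Tpm1 gives the main tropomyosin of the adult mouse heart, and Tpm2 gives beta-tropomyosin, which is more abundant in the fetal heart and in smooth and skeletal muscle.

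In the coordinates of GRCm38.p6, Tnni1 lies on chromosome 1 from 135783033 to 135810989 and Tnnt2 on the same chromosome from 135836315 to 135852268. Tnni3 lies on chromosome 7 from 4518305 to 4522718, beside Tnnt1 from 4504569 to 4515975. Tnnc1 lies on chromosome 14 from 31208312 to 31211729, Tpm1 on chromosome 9 from 67022590 to 67049672 and Tpm2 on chromosome 4 from 43513726 to 43523583. The 250 bases before a transcript start are shown for the fetal and adult troponin I genes, because these form the classic isoform pair, and for the other genes whose signals moved together from array to array. All sequences are from RefSeq, read 5′ to 3′ on the strand of the gene. For Tnni1 and Tnnt2 the table holds 2 windows and the first is given. Capitals mark CATTCC, the core of the M-CAT element, or its reverse complement.
Tnni1 (chr1:135799171-135799420, plus strand): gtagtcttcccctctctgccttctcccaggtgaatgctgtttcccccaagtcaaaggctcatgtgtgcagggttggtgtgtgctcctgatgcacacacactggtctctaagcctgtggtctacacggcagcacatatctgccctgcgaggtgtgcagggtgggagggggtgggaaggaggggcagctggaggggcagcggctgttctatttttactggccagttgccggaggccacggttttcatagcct
Tnni3 (chr7:4522529-4522778, minus strand): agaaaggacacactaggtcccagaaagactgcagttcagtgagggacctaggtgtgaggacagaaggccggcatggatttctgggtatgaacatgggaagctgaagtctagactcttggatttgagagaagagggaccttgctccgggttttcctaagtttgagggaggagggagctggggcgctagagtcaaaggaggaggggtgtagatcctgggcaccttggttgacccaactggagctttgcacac
Tnnt2 (chr1:135836084-135836333, plus strand): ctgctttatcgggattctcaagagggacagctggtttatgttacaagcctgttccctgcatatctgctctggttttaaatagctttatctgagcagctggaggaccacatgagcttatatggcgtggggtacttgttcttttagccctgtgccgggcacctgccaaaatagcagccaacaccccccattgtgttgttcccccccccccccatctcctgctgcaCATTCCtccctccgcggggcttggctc
Tnnc1 (chr14:31208062-31208311, plus strand): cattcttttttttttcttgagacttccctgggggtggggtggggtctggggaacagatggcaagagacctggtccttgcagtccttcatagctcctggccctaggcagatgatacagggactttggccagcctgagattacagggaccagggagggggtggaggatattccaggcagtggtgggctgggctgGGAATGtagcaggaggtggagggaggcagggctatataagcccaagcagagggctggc
Tpm1 (chr9:67049214-67049463, minus strand): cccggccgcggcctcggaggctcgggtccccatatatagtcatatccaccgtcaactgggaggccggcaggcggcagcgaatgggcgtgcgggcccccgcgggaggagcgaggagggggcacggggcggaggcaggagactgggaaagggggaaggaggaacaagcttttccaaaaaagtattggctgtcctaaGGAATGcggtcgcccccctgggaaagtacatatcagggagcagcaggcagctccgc

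M-CAT elements were first described in the promoter of the chicken cardiac troponin T gene and are bound by TEAD factors. The core CATTCC, searched on both strands, was found in 3 of the 7 member windows. In Tnnt2 it begins 27 bases before the start on the gene's strand, and on the opposite strand it lies 58 bases before the start in Tnnc1 and 56 in Tpm1. Of all 32851 windows of the same length, 12.6% held this core. The letters TATAAA occurred 30 bases before the start of Tnnt1 and in no other member, against 12.4% of all windows. AGGTCA, the half-site to which thyroid hormone receptors and PPARs can bind, was in 0 of 7 member windows and in 14% of all windows. The MEF2 consensus and the CArG box were also in 0 of 7, against 2.92% and 1.47% of all windows. No window held matches to more than 1 of these motifs, and a match describes letters only.

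Values are intensity signals on a linear scale that had been brought to the same trimmed mean on every array. The median signal of an array lay between 60 and 77.8 and the highest signal in the study was 26183.2. The brightness of a probe set depends on its probes, so levels of different probe sets are not amounts of RNA relative to each other. Groups are compared within a probe set. In RNA from tissue, fewer cells of a type and less RNA per cell cannot be told apart. For 8 genes listed as ventricular markers (Myl2, Myl3, Irx4, Hey2, Myh6, Actc1, Ryr2 and Pln), summed signals ran from 67487.8 to 113979 over all arrays. Bright genes weigh most in such a sum, so it does not show that each marker was bright, nor the part of the heart sampled. The summed signal of 8 atrial markers varied widely within every group, from 13273.2 to 59044.7 in treated del337TR hearts, from 17142.7 to 55318.9 in untreated del337TR hearts, from 7733.6 to 37979 in treated control hearts and from 13853 to 40931.7 in untreated control hearts. This sum holds the bright gene Nppa, at 2837.7 to 18293.6, and understates the spread of dimmer markers. Myl7 alone ran from 4.8 in an untreated control heart to 7967.7 in a treated del337TR heart.

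Troponin I showed the widest contrast in signal range, narrow for the adult and wide for the fetal isoform. Tnni3, the inhibitory subunit of the adult heart, was among the brightest probe sets of every array, at or above the 99.8868th percentile. Its signal averaged 14427 ± 2301 in treated del337TR hearts, 13715 ± 1329 in untreated del337TR hearts, 14928 ± 1481 in treated control hearts and 13366 ± 1870 in untreated control hearts (SD, n = 7 each). The highest signal was 1.64 times the lowest over all 28 hearts, and the groups overlapped. Whether signals this bright, here and for Tnnt2, Tnnc1 and Tpm1, rise in step with RNA was not tested. Tnni1 was dim and uneven. Its signal averaged 65.2 ± 48.5 in treated del337TR hearts, 138 ± 73.5 in untreated del337TR hearts, 43.2 ± 48.2 in treated control hearts and 82.0 ± 90.4 in untreated control hearts (SD, n = 7 each). The 28 hearts spanned 10.3 to 225.8, a range of 21.9 times between the highest and the lowest. On its arrays Tnni1 lay between the 16.6th and the 74.5th percentile. Without detection calls its lowest signals cannot be told from background, so folds of Tnni1 may not measure amounts of RNA.

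The single hearts show the spread within each group. In del337TR hearts given WY14643 the Tnni1 signals of replicates 1 to 7 were 16.6, 73.1, 65.9, 45.8, 70.8, 22 and 162.1. Untreated del337TR hearts gave 157.3, 90.8, 80.7, 225.8, 25.2, 198.8 and 187.1, of which only replicate 5 was below 80.7. Control hearts given WY14643 had 12.6, 77, 36.6, 10.3, 138.1, 13.1 and 14.8. Untreated control hearts had 17, 197.8, 225.1, 66.1, 20.3, 26.9 and 20.5, with replicates 2 and 3 far above the other 5. Every group held a heart at or below 25.2 and a heart at or above 138.1, and every pair of groups overlapped.

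Between strains without treatment the Tnni1 signal was 1.25 ± 0.70 higher in del337TR than in control hearts on the log2 scale (limma, 95% interval -0.18 to 2.68, unadjusted p = 0.0833, adjusted p = 0.999). The interval runs from a fold of 0.885 to a fold of 6.42. Under WY14643 the strain difference was 0.94 ± 0.70 (limma adjusted p = 0.744). WY14643 minus untreated was -1.15 ± 0.70 in del337TR hearts and -0.83 ± 0.70 in control hearts (limma adjusted p = 0.894 and 0.842). The WY14643 effects differed between strains by -0.32 ± 0.98, with an interval from -2.34 to 1.71. None of these passed the test. The intervals reach folds of 6.42 and 5.16 for the strains without and with WY14643, and folds of 0.167 and 0.208 for WY14643 in del337TR and in control hearts, while that of the difference of effects runs from a fold of 0.198 to 3.26. Single arrays moved the WY14643 value in control hearts, which was -1.23 without replicate 5 of the treated and -0.46 without replicate 3 of the untreated control hearts. Tnni3 differed by 0.04 ± 0.10 between untreated strains and by 0.17 ± 0.10 with WY14643 in control hearts. After quantile normalization these were 0.0050 ± 0.053 and 0.0062 ± 0.053. That method sets a signal by its rank, and Tnni3 kept nearly the same rank on every array, so it leaves little room for a difference. At the deposited scaling the 95% intervals of Tnni3 in the 4 comparisons reached no further than -0.27 and 0.38. Changes of its signal beyond folds of 0.827 and 1.30 lay outside them.

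**Figure D1:**
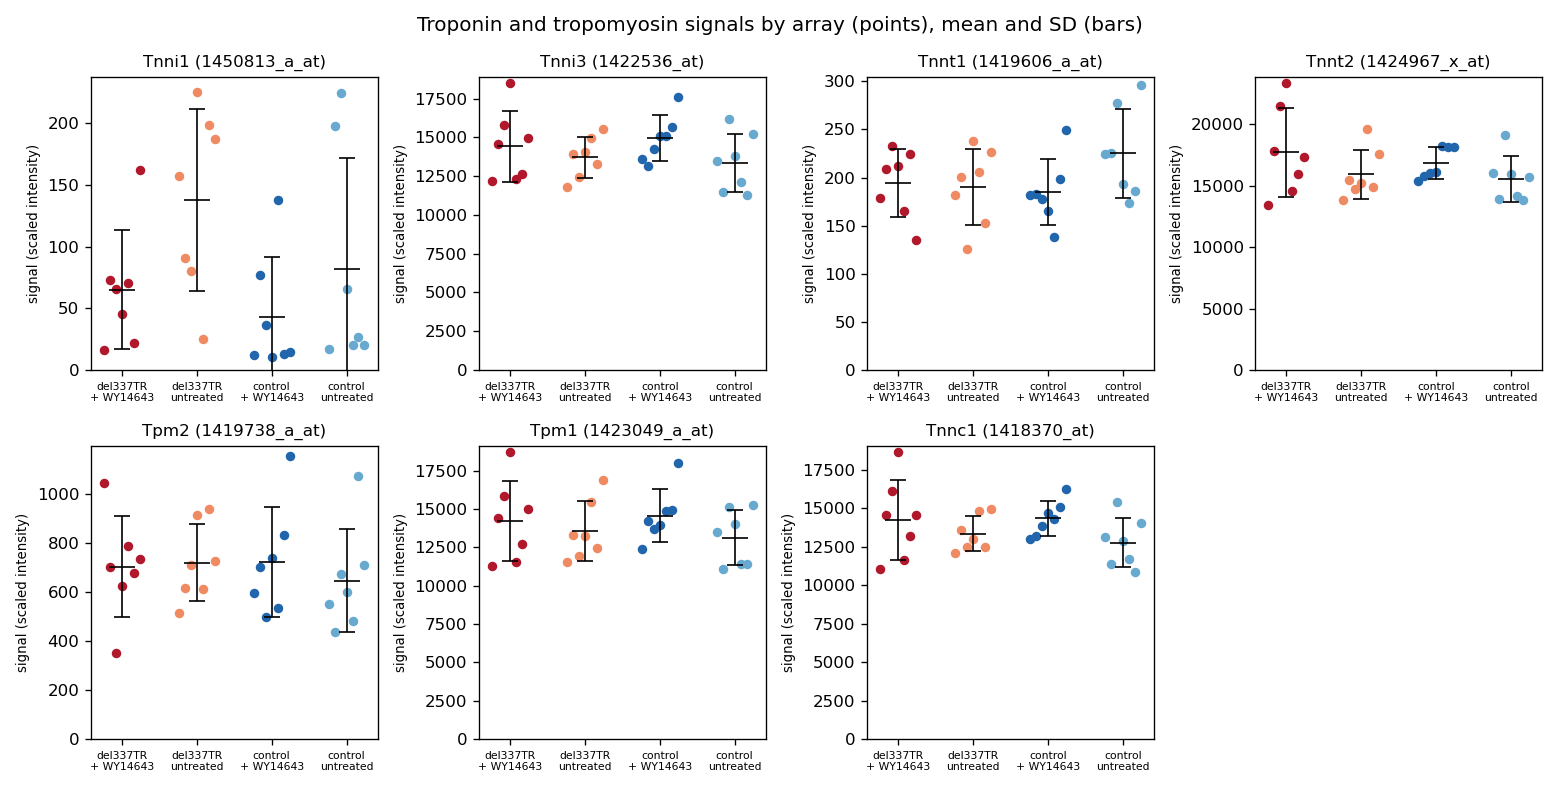
Signal (scaled intensity, linear axis from 0) of the 7 genes, each by its brightest probe set, with 1 point per heart, the group mean and the SD as bars (n = 7 each; SD bars that would pass below 0 are cut there). Tnni3, Tnnt2, Tnnc1 and Tpm1 stay within a narrow band in all groups, while Tnni1 runs from 10.3 to 225.8 and overlaps between all groups.

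Sex and the myosin heavy chains moved with some of the Tnni1 values. Xist was brighter than the Y-linked Eif2s3y on 1 treated del337TR array, 4 untreated del337TR arrays, 3 treated control arrays and 2 untreated control arrays. In untreated del337TR hearts Tnni1 lay at 157.3 to 225.8 on the 4 arrays with brighter Xist and at 25.2 to 90.8 on the other 3. In untreated control hearts it lay at 197.8 to 225.1 on the 2 arrays with brighter Xist and at 17 to 66.1 on the other 5. With WY14643 the ranges overlapped, at 45.8 on the 1 array with brighter Xist and 16.6 to 162.1 on the others in del337TR hearts, and at 13.1 to 138.1 and 10.3 to 77 in control hearts. With log2 Xist minus Eif2s3y as a covariate, chosen with earlier results known, the untreated strain difference of Tnni1 was 0.76 ± 0.64 and that under WY14643 was 1.31 ± 0.63 (limma adjusted p = 1.00 and 0.548). With the covariate, WY14643 minus untreated was -0.46 ± 0.66 in del337TR hearts and -1.004 ± 0.62 in control hearts, and the sign of the difference of effects turned, to 0.54 ± 0.92. Among treated control hearts, replicates 1, 4, 6 and 7 had both low Tnni1 and low Myh7, the slow and fetal myosin heavy chain, at 6007, 4239.9, 3920.7 and 4519.7. Replicates 2, 3 and 5 had Myh7 signals of 17697.1, 18240.4 and 18817.1. Other hearts with low Tnni1 differed in Myh7. Untreated control replicates 1, 5 and 6, with Tnni1 at 17, 20.3 and 26.9, had Myh7 at 16522.5, 14871.9 and 14554, and replicate 7, with Tnni1 at 20.5, had Myh7 at 3102.7. Treated del337TR replicates 1 and 6, with Tnni1 at 16.6 and 22, had Myh7 at 14992.2 and 16110.7. The part of sex or of Myh7 in the Tnni1 spread was not tested.

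Markers of other heart cells were set beside the Tnni1 differences. Of 8 fibroblast markers, 7 were higher in untreated del337TR than in untreated control hearts (median log2 difference 0.14) and 8 were higher under WY14643 (0.22), while 6 of 8 were lower with WY14643 in del337TR hearts (-0.09) and in control hearts (-0.20). Of 8 atrial markers, 6 were higher in del337TR hearts without and with WY14643 (medians 0.51 and 0.79), and 6 and 5 were lower with WY14643 in del337TR and in control hearts (-0.41 and -0.08). No gene of either list passed the adjusted limma test in these comparisons. The summed fibroblast signal ran from 19450.3 to 23837.9 in treated del337TR hearts, from 20377.4 to 25719.7 in untreated del337TR hearts, from 17055 to 22462.5 in treated control hearts and from 17964.3 to 22659.3 in untreated control hearts. The summed atrial signal ran from 13273.2 to 59044.7, from 17142.7 to 55318.9, from 7733.6 to 37979 and from 13853 to 40931.7 in the same 4 groups. The groups overlapped for both lists. With the mean log2 signal of Myl4, Myl7 and Sln as a covariate, the untreated strain difference of Tnni1 was 1.05 ± 0.74. That under WY14643 was 0.87 ± 0.70. WY14643 minus untreated was then -1.08 ± 0.70 in del337TR hearts and -0.89 ± 0.70 in control hearts. None of these passed the adjusted limma test. What share of the Tnni1 differences came from either cell type was not tested.

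Troponin T was bright in its cardiac form and faint in its slow form. Tnnt2, read by the probe set 1424967_x_at, averaged 17720.2 ± 3595 in treated del337TR hearts, 15930.2 ± 1982 in untreated del337TR hearts, 16856 ± 1286 in treated control hearts and 15555 ± 1866 in untreated control hearts (SD, n = 7 each). The treated del337TR hearts spread most, from 13445.3 through a median of 17314.6 to 23356.7, and the groups overlapped. A second Tnnt2 probe set, 1418726_a_at, was equally bright and followed the first over the arrays with r = 0.96, though with r = 0.25 after quantile normalization. The third, 1440424_at, was dim, at 144.7 to 453.7, and did not follow them (r = -0.08 and -0.09).

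Tnnt1, the slow skeletal troponin T, averaged 194 ± 35.4 in treated del337TR hearts, 190.1 ± 39.8 in untreated del337TR hearts, 185 ± 34.1 in treated control hearts and 225 ± 46.4 in untreated control hearts (SD, n = 7 each). The lowest, median and highest untreated control signals were 173.9, 224.4 and 295.7, and those of treated control hearts were lower at 138.6, 181.5 and 249.5, with overlap. WY14643 minus untreated was -0.28 ± 0.16 in control hearts (limma, unadjusted p = 0.0876, adjusted p = 0.768) and 0.04 ± 0.16 in del337TR hearts (limma adjusted p = 0.994). The difference of these effects was 0.32 ± 0.22 and did not pass the test (limma adjusted p = 0.956). Without treatment the strain difference of Tnnt1 was -0.25 ± 0.16 (limma adjusted p = 0.999). Tnnt2 differed by 0.12 ± 0.11 with WY14643 in control hearts, by 0.14 ± 0.11 in del337TR hearts and by 0.03 ± 0.11 between untreated strains.

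Tnnc1, the calcium-binding subunit, averaged 14253 ± 2609 in treated del337TR hearts, 13348 ± 1153 in untreated del337TR hearts, 14339 ± 1126 in treated control hearts and 12769.9 ± 1600 in untreated control hearts (SD, n = 7 each). Its lowest signal was 10866.7, in an untreated control heart, and its highest 18647.6, in a treated del337TR heart. WY14643 minus untreated was 0.17 ± 0.10 in control hearts and 0.08 ± 0.10 in del337TR hearts, and the strain difference was 0.07 ± 0.10 without treatment and -0.03 ± 0.10 with it. No interval of Tnnc1 in these 4 comparisons reached beyond a fold of 0.847 or 1.31.

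Tpm1, the adult heart tropomyosin, averaged 14228 ± 2624 in treated del337TR hearts, 13564 ± 1945 in untreated del337TR hearts, 14585 ± 1746 in treated control hearts and 13129 ± 1803 in untreated control hearts (SD, n = 7 each) by its brightest probe set, 1423049_a_at. The log2 differences were 0.16 ± 0.12 for WY14643 in control hearts, 0.06 ± 0.12 for WY14643 in del337TR hearts, 0.05 ± 0.12 for the untreated strains and -0.05 ± 0.12 for the strains under WY14643. The other 3 Tpm1 probe sets had means over all hearts of 2882, 216 and 64.3, and none followed the brightest one (r from -0.28 to 0.02). The second brightest, 1447713_at, averaged 3105 ± 692 in treated and 2590 ± 613 in untreated del337TR hearts, and 3221 ± 728 in treated and 2610.5 ± 224 in untreated control hearts. These differences had unadjusted limma p of 0.109 and 0.0979 and did not pass. Probe sets of a gene may read different transcript forms, and the labels and annotation do not say which forms these read.

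Tpm2, beta-tropomyosin, averaged 704 ± 207 in treated del337TR hearts, 720.2 ± 158 in untreated del337TR hearts, 723 ± 224 in treated control hearts and 648 ± 212 in untreated control hearts (SD, n = 7 each) by the probe set 1419738_a_at. Its lowest, median and highest signals were 352.3, 704.3 and 1046.4 in treated del337TR hearts, 516.3, 712.8 and 939.1 in untreated del337TR hearts, 497.1, 703.7 and 1156.2 in treated control hearts and 437.6, 601.8 and 1073.5 in untreated control hearts. The groups covered each other almost wholly. The strain difference was 0.18 ± 0.22 without treatment and -0.04 ± 0.22 with it. The WY14643 effect was 0.16 ± 0.22 in control hearts and -0.06 ± 0.22 in del337TR hearts. The other 3 Tpm2 probe sets had means over all hearts of 255, 155 and 61.4.

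Over the 15 probe sets the comparisons gave no call after adjustment over all probe sets. For del337TR against control without treatment, 0 of 15 had a limma adjusted p under 0.05, beside 1 of 45037 on the whole array, or 0.00222%. At an unadjusted p under 0.05 it was 0 of 15 against 4.01% of all. The other 4 contrasts also had 0 of 15 members and 0% of all probe sets called after adjustment. Unadjusted, 0 of 15 members stood against 6.75% of all probe sets for WY14643 in control hearts, 5.78% for WY14643 in del337TR hearts, 8.86% for the strains under WY14643 and 4.9% for the difference of effects. Groups without overlap were found for 0 of 15 members in each comparison, against 0.0866% of all probe sets for WY14643 in control hearts, 0.0733% for WY14643 in del337TR hearts, 0.0688% for the untreated strains and 0.107% for the strains under WY14643.

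The signs of the members' differences are given as counts only, since several probe sets read the same gene. Of the 15, 13 were higher and 2 lower in del337TR than in control hearts without treatment, with a median log2 difference of 0.07 beside -0.01 over all probe sets. With WY14643 the strain comparison had 9 higher and 6 lower and a median of 0.03 beside 0.04 over all. WY14643 in control hearts gave 9 higher and 6 lower and a median of 0.12 beside -0.03, and in del337TR hearts 8 higher and 7 lower and a median of 0.04 beside 0.02. These comparisons share groups, so their counts are not independent of each other. After quantile normalization the small positive WY14643 differences of Tnni3, Tnnc1 and Tpm1 in del337TR hearts and of Tnnt2 in control hearts lay below 0.

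**Figure D2:**
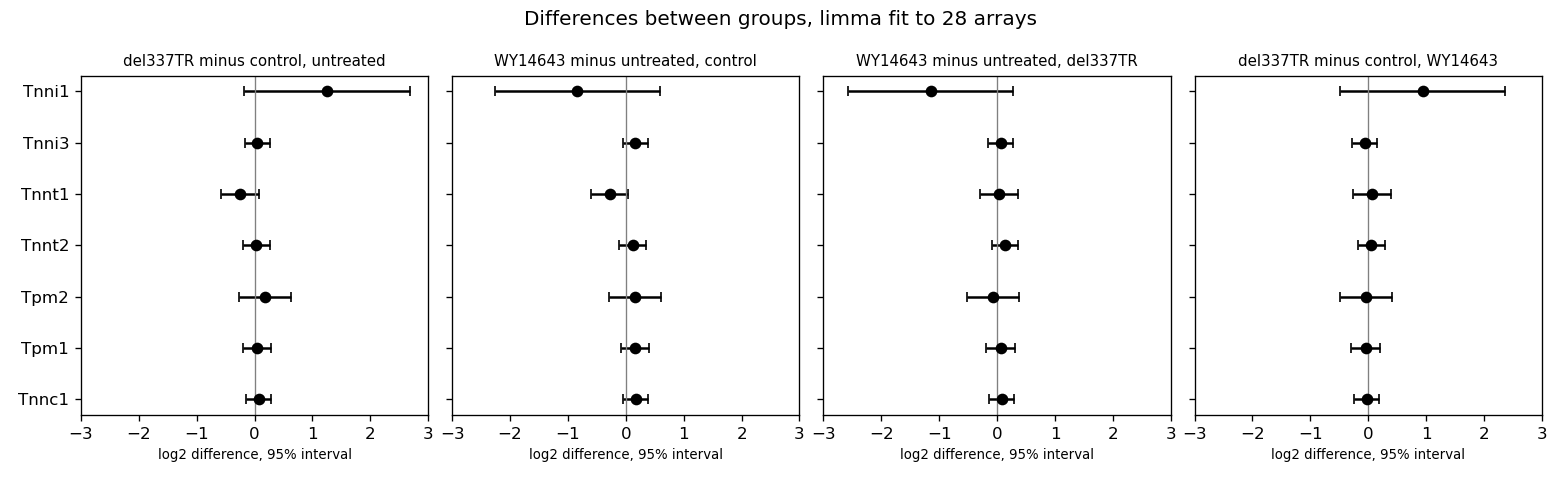
Log2 differences (points) with 95% intervals from limma (bars) of the 7 genes in 4 comparisons, with 0 as the vertical line and 28 arrays in the fit. All intervals cross 0, and those of Tnni1 are several times wider than those of the other genes.

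To set slow or fetal against adult isoforms in each heart, the log2 signal of the adult form was subtracted from that of the slow or fetal form. The level of this difference depends on the probes, and its changes between groups are described without a test. Tnni1 minus Tnni3 was -8.12 ± 1.05 in treated del337TR hearts, -6.91 ± 1.15 in untreated del337TR hearts, -9.12 ± 1.53 in treated control hearts and -8.12 ± 1.58 in untreated control hearts (SD, n = 7 each). Untreated del337TR hearts thus had the highest mean, with a median of -6.38 against -8.71 in untreated control hearts. Their lowest heart, at -9.21, lay below the median of the untreated control hearts, so the groups overlapped. On the 4 untreated del337TR arrays with brighter Xist the value lay at -6.38 to -5.96, and on the others at -9.21 to -7.26. On the 2 such untreated control arrays it was -6.17 and -5.86, and on the others -9.63 to -7.71. The part of sex in this group difference was not tested, and low Tnni1 signals cannot be told from background.

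Tnnt1 minus Tnnt2 was -6.51 ± 0.30 in treated del337TR hearts, -6.41 ± 0.29 in untreated del337TR hearts, -6.53 ± 0.26 in treated control hearts and -6.13 ± 0.22 in untreated control hearts (SD, n = 7 each). Untreated control hearts ran from -6.36 to -5.74 and treated control hearts from -7.04 to -6.19, which overlap at their ends. Tpm2 minus Tpm1 was almost level across groups, at -4.38 ± 0.67 in treated del337TR hearts, -4.25 ± 0.36 in untreated del337TR hearts, -4.38 ± 0.31 in treated control hearts and -4.39 ± 0.44 in untreated control hearts. The lowest value of this pair was -5.49, in a treated del337TR heart, and the highest -3.41, in an untreated control heart. The Tpm2 probe set used here, 1419738_a_at, went with smooth muscle genes from heart to heart, as given below. Whether it reads a fetal form in heart muscle was not tested.

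**Figure D3:**
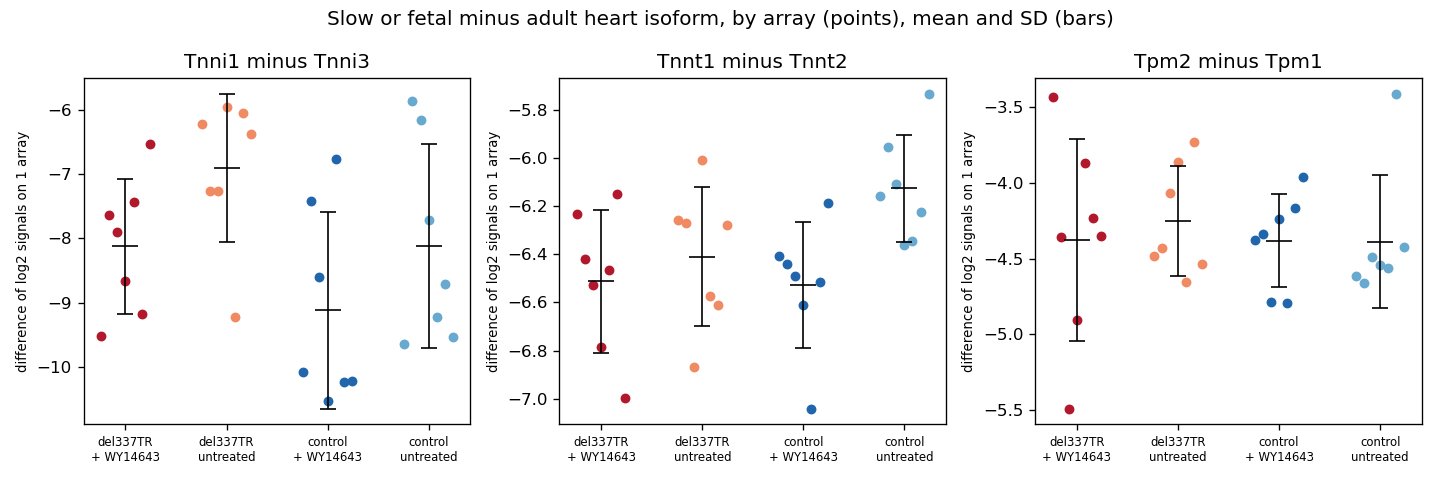
Log2 signal of the slow or fetal isoform minus log2 signal of the adult heart isoform on the same array, with 1 point per heart, the group mean and the SD as bars (n = 7 each; the axes do not start at 0). For each of the 3 isoform pairs the groups overlap; untreated del337TR hearts have the highest mean of Tnni1 minus Tnni3, at -6.91, and untreated control hearts the highest mean of Tnnt1 minus Tnnt2, at -6.13.

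Beyond the group means, the members were compared from heart to heart, by correlating log2 signals from which the group means had been taken. The family held 1236 relations, made of 21 member pairs and of 15 probe sets against 81 genes of the gene lists. P values came from 100000 permutations within groups, two-sided, and were adjusted over the family. The smallest unadjusted p that these permutations can give is 1e-05. Tnni3, Tnnt2, Tnnc1 and Tpm1 varied together over the 28 hearts, with Pearson's r from 0.89 to 0.96 and Spearman's rho from 0.92 to 0.95 in their 6 pairs. For Tnni3 and Tnnc1, r was 0.96 and Spearman's rho 0.95 (permutation adjusted p = 2.575e-04 and 2.874e-04), and r was 0.95 without the 2 arrays farthest from the median. The weakest of the pairs, Tnni3 with Tnnt2, had r = 0.89 and rho = 0.92 at the same adjusted permutation p values, and r = 0.84 without the 2 farthest arrays.

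Other bright probe sets moved in the same way at the deposited scaling. The 153 other probe sets with a mean signal over 10000 had a median r of 0.89 with Tnni3, 0.88 with Tnnt2, 0.90 with Tnnc1 and 0.86 with Tpm1. After quantile normalization these medians were 0.09, -0.03, 0.06 and -0.04, and the 6 pairs among the members had r from -0.33 to 0.22. Tnnt1 went with the bright members more loosely, with r from 0.44 to 0.53, and no pair passed for Pearson's r (permutation adjusted p from 0.0776 to 0.220). Its rho with them ran from 0.51 to 0.61 (permutation adjusted p from 0.0273 to 0.105). After quantile normalization the r of Tnnt1 with them lay between -0.03, with Tnnt2, and 0.36, with Tpm1. Tnni1 and Tpm2 had r from -0.26 to 0.11 and rho from -0.09 to 0.13 with the bright members, and none passed.

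**Figure D4:**
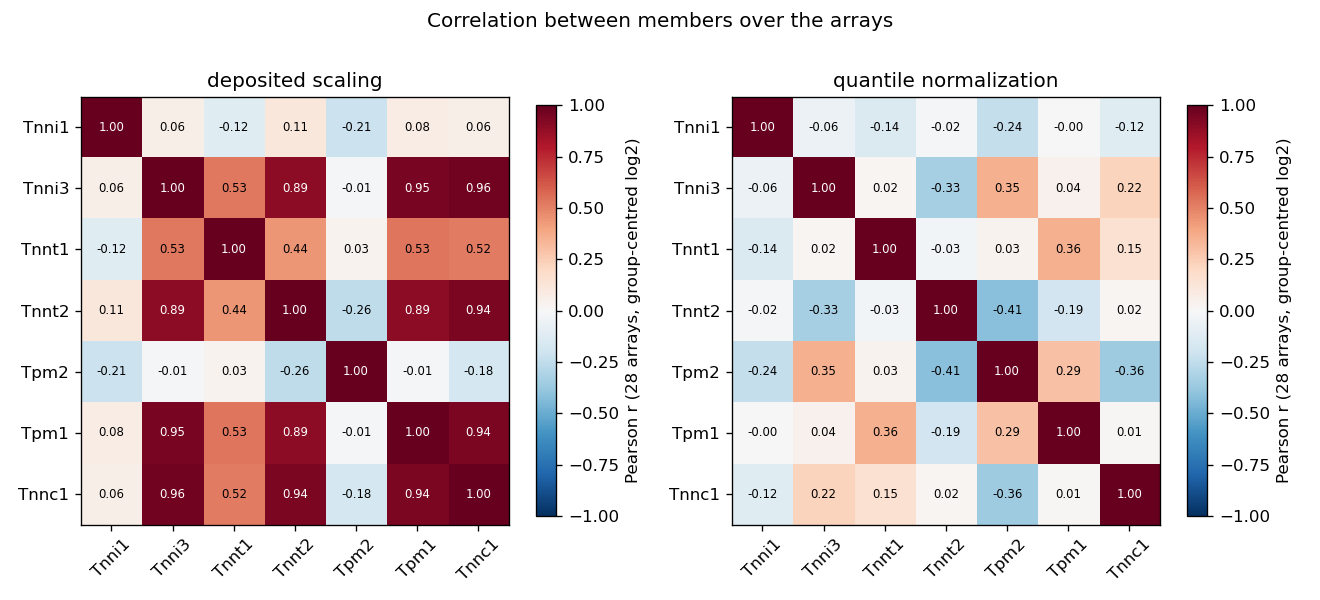
Pearson's r (colour and printed value) between the 7 genes over 28 hearts, from log2 signals centred on the group means, at the deposited scaling (left) and after quantile normalization (right). The block of Tnni3, Tnnt2, Tpm1 and Tnnc1 at r of 0.89 to 0.96 on the left falls to r of -0.33 to 0.22 on the right.

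Of the 4 Tpm2 probe sets, 2 went with smooth muscle genes and 1 with atrial genes, and the dim 1449577_x_at passed with 0 of 81 list genes. These partner genes were singled out after their correlations were seen. Two-sided permutation tests adjusted over the 1236 relations were passed by 4 of 81 list genes for 1419738_a_at, 2 for 1425028_a_at and 4 for 1419739_at. The first of these, 1419738_a_at, went with Acta2, smooth muscle actin, at r = 0.63 and rho = 0.67 (permutation adjusted p = 0.00818 and 0.0101), and r was 0.57 without the 2 farthest arrays. It also went with Tagln, an actin-binding protein of smooth muscle, at r = 0.60 and rho = 0.60 (permutation adjusted p = 0.0204 and 0.0355), and with Mylk, myosin light chain kinase, at r = 0.58 and rho = 0.57 (permutation adjusted p = 0.0230 and 0.0398). Without the 2 farthest arrays these were 0.57 and 0.48. Its 4th partner was the adipocyte hormone gene Adipoq, at r = 0.64 and rho = 0.59 (permutation adjusted p = 0.00931 and 0.0294), and r was 0.49 without the 2 farthest arrays. The adipocyte list as a whole did not follow. Its 5 measured genes had a median r of 0.09 with 1419738_a_at, where 3 were positive and the lowest was -0.05.

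The probe set 1425028_a_at followed 1419738_a_at (r = 0.85) and Acta2 (r = 0.76, rho = 0.75, permutation adjusted p = 9.328e-04 and 0.00187). It went with Tagln at r = 0.70 and rho = 0.65 (permutation adjusted p = 0.00638 and 0.0124). Without the 2 farthest arrays r was 0.67 with Acta2 and 0.61 with Tagln, and after quantile normalization it was 0.71 and 0.69. Within single groups r with Acta2 was at least 0.66 in all 4. The full list of 8 smooth muscle genes had a median r of 0.49 with 1419738_a_at, where 6 of 8 were positive and the lowest was -0.27, and of 0.54 with 1425028_a_at, where 7 were positive and the lowest was -0.12. Its summed signal ran from 5962.8 to 7737.5 in treated del337TR hearts, from 5209.8 to 9744.3 in untreated del337TR hearts, from 6445.7 to 9016.4 in treated control hearts and from 5869 to 10055.5 in untreated control hearts.

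The third Tpm2 probe set, 1419739_at, followed the atrial genes. Its signals in replicates 1 to 7 were 100.4, 124.7, 158.2, 93.6, 136.7, 135.3 and 499.9 in treated del337TR hearts and 136.3, 180, 111.3, 158.2, 120, 132.9 and 337.1 in untreated del337TR hearts. They were 114.5, 235.2, 79.5, 100.5, 137.1, 123.2 and 111.1 in treated control hearts and 83.7, 118.2, 101.5, 146, 95.4, 218.6 and 263.2 in untreated control hearts. Replicate 7 of both del337TR groups stood highest, and the same hearts had the highest signals of Myl4, the atrial essential light chain, at 14212.5 and 13859.6 in a range of 106.9 to 14212.5. Over all 28 hearts r with Myl4 was 0.77 and rho 0.86 (permutation adjusted p = 9.328e-04 and 2.874e-04), and r was 0.83 without the 2 farthest arrays.

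The strongest partner of 1419739_at was Dkk3, an atrial marker, at r = 0.87 and rho = 0.85 (permutation adjusted p = 2.575e-04 and 2.874e-04). Myl7, the atrial regulatory light chain, had r = 0.73 and rho = 0.84, and Sln, sarcolipin, had r = 0.73 and rho = 0.83 (permutation adjusted p for r = 0.0115 and 0.00628). All 4 held after quantile normalization, at r from 0.70 to 0.87, and in each group taken alone, where the lowest r was 0.63. The whole list of 8 atrial markers had a median r of 0.69 with 1419739_at, 0.27 with 1449577_x_at, 0.22 with 1425028_a_at, 0.11 with 1419738_a_at and 0.14 with Tnni1. None of the other Tpm2 probe sets passed the test with an atrial gene. How much of this Tpm2 signal came from atrial tissue was not tested.

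**Figure D5:**
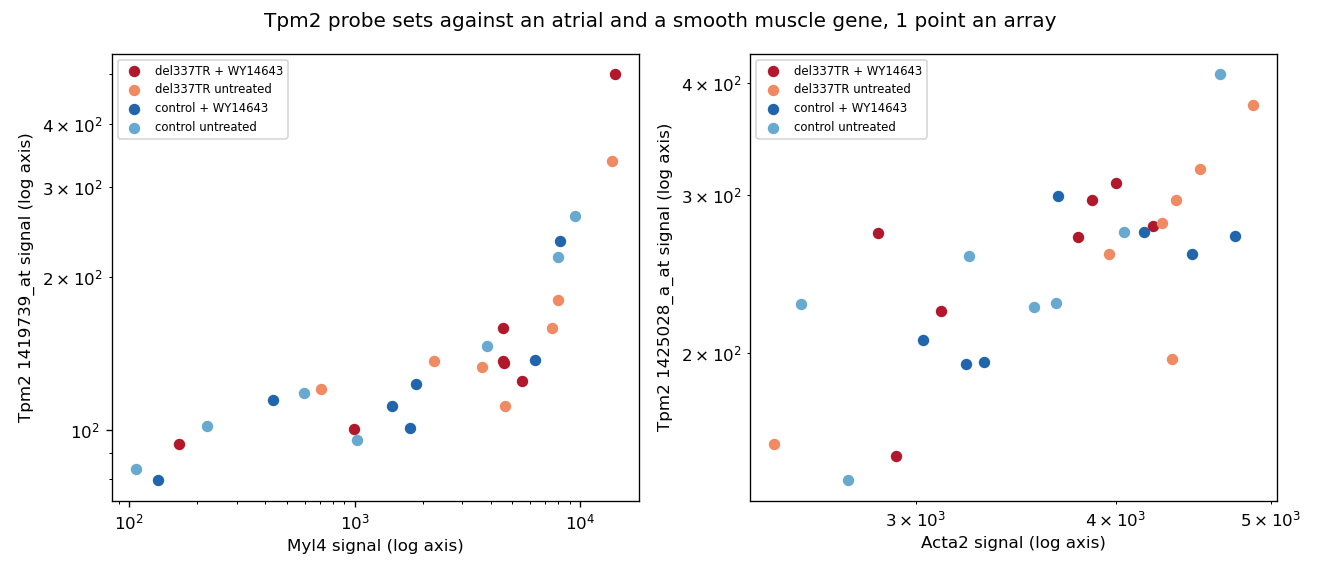
Signals of the Tpm2 probe set 1419739_at against the atrial gene Myl4 (left) and of the Tpm2 probe set 1425028_a_at against the smooth muscle gene Acta2 (right), log axes, 1 point per heart, coloured by group. All 4 groups lie along the same rising band in each panel, and the hearts highest in Myl4, at 14212.5 and 13859.6, are the highest in 1419739_at, at 499.9 and 337.1.

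Single further relations passed for the minor Tpm1 probe sets. The probe set 1423721_at went with Mylk at r = 0.67 and rho = 0.64 (permutation adjusted p = 0.00434 and 0.00867; 0.54 without the 2 farthest arrays). The probe set 1456623_at went with Tcf21, a transcription factor of cardiac fibroblasts, at r = 0.62 and rho = 0.59 (permutation adjusted p = 0.0247 and 0.0415; 0.60 without the 2 farthest arrays). For Tnni1, 0 of 81 list genes passed both adjusted tests. Its nearest were Lum, lumican of the matrix, at r = 0.57 and rho = 0.63 (permutation adjusted p = 0.0506 and 0.0200), and Nppa, atrial natriuretic peptide, at r = 0.57 and rho = 0.51 (permutation adjusted p = 0.0409 and 0.0945). Without the 2 farthest arrays r was 0.59 with Lum and 0.52 with Nppa. The 8 fibroblast markers all had positive r with Tnni1, from 0.26 to 0.57, as did the 7 fetal and hypertrophy genes, from 0.29 to 0.57. Genes of a list can vary together, so these signs are not independent, and no share over all probe sets was computed. Sex, with which Tnni1 moved in untreated hearts, was not taken out of these values.

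By the same measure over the 28 hearts, the genes most like each member were named from 23106 probe sets above the 40th percentile, as a description. Tnni1 was most like Gpm6b at r = 0.79, followed by Mgp, matrix Gla protein, at 0.73, Sdc2 at 0.72, Gprasp1 at 0.72 and the collagen gene Col14a1 at 0.70. Tnnt1 was most like Nop9 at 0.75, Mrpl2 at 0.74, Aup1 at 0.73, Pim3 at 0.71 and Lao1 at 0.71. Tpm2 had Shld1 at 0.69, Pdlim4 and the actin cross-linker Flna at 0.67, and Csrp1 and Pcdhb3 at 0.66. These 15 values changed by little after quantile normalization, where they ran from 0.63 to 0.80.

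The nearest genes of the bright members had r from 0.94 to 0.98. Tnni3 led with Cox5b at 0.98, the myosin light chain Myl3 at 0.97, Atp5k at 0.97, the calcium pump gene Atp2a2 at 0.97 and myoglobin, Mb, at 0.97. Tnnt2 had Fabp3 at 0.97, Atp5k and Pln, phospholamban, at 0.95, and Acadm and Slc25a3 at 0.94. Tnnc1 had Myl3 and Tpt1 at 0.98, and Fabp3, Cox7a2 and Atp2a2 at 0.98, 0.97 and 0.97. Tpm1 had Mb at 0.98, Myl3 at 0.97, Tpt1 and Myl2 at 0.96 and Cox6c at 0.96. After quantile normalization these 20 values lay between -0.03 and 0.69.

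The rest of the thin filament gave 0 of 12 genes past the adjusted test in any comparison. Of the 12, 9 were higher in del337TR than in control hearts without treatment, with a median of 0.06 beside -0.01 over all probe sets, and 11 were higher under WY14643, with a median of 0.10 beside 0.04. With WY14643, 11 were higher in del337TR hearts and 11 in control hearts, with medians of 0.16 beside 0.02 and 0.09 beside -0.03. The fast skeletal troponins Tnni2, Tnnt3 and Tnnc2 were dim, between 3.8 and 94.5 on all arrays. Tnni2, the fast troponin I, averaged 39.9 ± 31.8 in treated del337TR hearts, 20.4 ± 17.0 in untreated del337TR hearts, 18.2 ± 9.19 in treated control hearts and 12.8 ± 2.43 in untreated control hearts. Its strain difference under WY14643 was 0.90 ± 0.43 (limma, unadjusted p = 0.0480, adjusted p = 0.561). Tpm4, a cytoskeletal tropomyosin, averaged 1367 ± 170 in treated del337TR hearts and 1243 ± 156 in treated control hearts, a difference of 0.14 ± 0.10. Acta1, skeletal alpha-actin, which is also a fetal heart actin, averaged 10626 ± 2130 in treated del337TR hearts and 8104.5 ± 2872 in treated control hearts, a difference of 0.45 ± 0.19 (limma, unadjusted p = 0.0272, adjusted p = 0.504).

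The thick filament and titin list likewise had 0 of 11 measured genes past the adjusted test in any comparison. All 11 were higher in untreated del337TR than in untreated control hearts, with a median of 0.05 beside -0.01 over all probe sets, and 6 were higher and 5 lower under WY14643, with a median of 0.01 beside 0.04. With WY14643, 11 were higher in del337TR hearts (0.08 beside 0.02) and 8 in control hearts (0.13 beside -0.03). Bright probe sets varied together from array to array, as given above, so these signs are not independent of each other. Myh7 had the lowest p of the list for the strains under WY14643, at 1.14 ± 0.38 (limma, unadjusted p = 0.00600, adjusted p = 0.428). Tnni1, the fetal troponin I, had 0.94 ± 0.70 in the same comparison and Tpm2 had -0.04 ± 0.22. All 7 measured fetal and hypertrophy genes were higher in treated del337TR than in treated control hearts, with a median of 0.45 beside 0.04 over all probe sets, and 6 of them had an unadjusted limma p under 0.05, against 5.25% of all probe sets that were higher at that level. None of the 7 passed after adjustment. In the treated control hearts with low Myh7, replicates 1, 4, 6 and 7, Nppa was also low, at 2837.7, 4703.4, 4451.9 and 3877, against 14345.3, 11891.8 and 14026.9 in replicates 2, 3 and 5. Nppa ran from 7564.1 to 18238.7 in treated del337TR hearts. Untreated control replicate 7, with Myh7 at 3102.7, had Nppa at 12384.5. Nppb did not follow in every heart. It was 7180, 6050.4, 9852.3 and 4238.1 in treated control replicates 1, 4, 6 and 7, against 9304.3, 9032.8 and 8495.2 in replicates 2, 3 and 5. In untreated hearts 6 of the 7 genes were higher in del337TR than in control (median 0.20). With WY14643, 5 of 7 were higher in del337TR hearts (0.11) and 6 of 7 lower in control hearts (-0.31). Myh7 and Acta1 also stand on the filament lists and Nppa on the atrial list, so these counts share genes.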

How the data were processed

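Total RNA from frozen heart tissue was labelled with biotin and hybridised, 1 array an animal, per the labels' protocols. The deposited value of a probe set on an array is an intensity, linear and not logged. The submitters' processing notes name RMA, without a version. The deposited intensity values do not have the form of RMA: they are not logarithms and their mean, trimmed by 2% at each end, is 250 on every array. They were treated as globally scaled signals. Neither labels nor files name the software that made them, detection calls or hybridisation dates.

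The table held 45101 probe sets, of which 64 array controls were left out. Gene symbols came from the platform annotation, where 34945 probe sets had 1 symbol, 932 several and 9160 none. Signals were floored at 0.1, which touched 3 values at 0, and taken to log2. Means of 4 groups were fitted to 28 arrays with limma 3.58.1 in R 4.3.3 (24 residual degrees of freedom, two-sided tests). Benjamini-Hochberg adjustment ran over 45037 probe sets per contrast, with a threshold of 0.05. A difference is log2 of the first group named minus the other, ± limma's standard error. The number of arrays, 7 a group, limits the precision.

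Named were all member probe sets, the 5 genes most like each member, and up to 4 genes per list and contrast with the smallest p. A gene stood for itself by its brightest probe set. Members and lists were chosen with earlier results of these data known. The fit, the permutation test and the search for like genes were tested on simulated data. Alternatives were log2 of the signal plus 16, a filter at the 40th percentile, median centring, quantile normalization, a replicate block, array weights, eBayes with trend and robust options, a fit to only the groups compared, sex and atrial covariates, the mean of a gene's probe sets, and leaving out each array. Promoter windows came from RefSeq tables for GRCm38.p6, and all 7 members were matched by symbol.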

Additional observations from a re-analysis of the deposited data

Results flagged for a closer look

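The 15 member probe sets were searched in 4 groups each, 60 groups in all, for a single heart far from the other 6, and 7 such values were found. The cut-off flags about 1 in 20 groups if signals are normally distributed, which was not tested for these linear signals. Each flagged value was the highest of its group, and several probe sets read the same gene. Whether 7 is more than chance gives was therefore not tested. For Tnni1, replicate 7 of the del337TR hearts given WY14643 had a signal of 162.1, where the next heart had 73.1. For Tnnt2, probe set 1424967_x_at, replicate 3 of the untreated control hearts had 19172.6 and the next heart 16027.7. On the dim Tnnt2 probe set 1440424_at, replicate 5 of the treated control hearts had 407.3 and the next heart 251.1. For Tpm2, probe set 1419738_a_at, replicate 6 of the untreated control hearts had 1073.5 and the next heart 711.7.

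The Tpm2 probe set 1419739_at had 3 of the 7. Replicate 7 of the treated del337TR hearts had 499.9 against 158.2 in the next heart, replicate 7 of the untreated del337TR hearts had 337.1 against 180, and replicate 2 of the treated control hearts had 235.2 against 137.1. The signals of the atrial gene Myl4 were 14212.5, 13859.6 and 8124.7 on the same arrays, and the part of atrial tissue in these values was not tested.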

How the results depend on the processing

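No member probe set passed the adjusted test under any alternative. Over 1323 alternative values of the 7 brightest probe sets, 0 were called, 8 had an unadjusted limma p under 0.05, and the lowest adjusted p was 0.548, for Tnni1 between strains under WY14643 with the sex covariate. The count over all probe sets changed by single calls. For the untreated strains the 1 call became 0 with the filter at the 40th percentile, only the groups compared, the replicate block, the sex covariate and the atrial covariate, and 0 to 1 when single arrays were left out. For WY14643 in control hearts it was 1 with 16 added, 3 with only the groups compared, and 0 to 1 without single arrays; for WY14643 in del337TR hearts it was 0 to 1 without single arrays; for the difference of effects it was 1 with 16 added. The replicate block changed no call of a member. Only 1 of 42 pairs of same-numbered arrays had r over 0.1, where all were required, so the numbers were not taken to pair animals. Of 28 arrays, 13 correlated best with an array of their own number among those of the other groups, against 4 if the numbers carried no information, a hint from the data, not from the labels, that same-numbered arrays are alike.

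Small differences changed sign. After quantile normalization WY14643 in control hearts gave -0.021 for Tnnt2, and WY14643 in del337TR hearts gave -0.043 for Tnni3, -0.017 for Tnnc1 and -0.032 for Tpm1. Median centring gave -0.0014 and -0.014 for Tnnt1 with WY14643 in del337TR hearts and between strains under WY14643, and -0.030 and -0.081 for Tnnt2 between strains under WY14643 and as the difference of effects. Array weights gave 0.060 for Tpm2 between strains under WY14643 and -0.021 for the Tnnt2 difference of effects, which was -0.015 with the atrial covariate. The sex covariate gave -0.0065 for Tnnt2 between untreated strains, 0.0012 for Tnnc1 between strains under WY14643 and 0.54 for the Tnni1 difference of effects. Leaving out single arrays gave ranges that crossed 0 for the untreated strains in Tnnt2 (-0.018 to 0.085) and Tpm1 (-0.0080 to 0.085); for WY14643 in del337TR hearts in Tnnt1 (-0.058 to 0.12), Tpm1 (-0.0089 to 0.12) and Tpm2 (-0.17 to 0.092); for strains under WY14643 in Tnnt2 (-0.020 to 0.11), Tnnc1 (-0.093 to 0.032), Tpm1 (-0.12 to 0.0045) and Tpm2 (-0.15 to 0.11); and for the difference of effects in Tnni1 (-0.69 to 0.080) and Tnnt2 (-0.053 to 0.079). After quantile normalization the correlations were -0.33 for Tnni3 with Tnnt2, -0.19 for Tnnt2 with Tpm1, 0.22 and 0.04 for Tnni3 with Tnnc1 and with Tpm1, 0.02 for Tnnt2 with Tnnc1 and 0.01 for Tnnc1 with Tpm1. The causes of these changes were not tested. The 10 Tpm2 correlations kept their direction without replicate 7 of both del337TR groups, an alternative chosen after seeing the data. No permutation test was run without these arrays, so whether the calls hold was not tested.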
